A study of Homo sapiens with 4 samples.

Results

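The alpha subunits of the Gs, Gq and G12 classes of heterotrimeric G proteins were examined in HEK293, an immortalised human kidney-derived line that is a common host for cloned receptors. The class members were GNAS and GNAL (Gs), GNAQ, GNA11, GNA14 and GNA15 (Gq), and GNA12 and GNA13 (G12), chosen by name. All 8 genes were matched through the RefSeq accession in the probe name, with 10 targets and 30 probes, out of 17217 named genes and 71998 probes. The series held 4 arrays of untreated HEK293 cells, which the labels call biological replicates of a single group and the study's methods describe as separate plates grown to confluence in DMEM with serum and extracted separately. No other condition or cell type was part of the series.

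A G protein alpha subunit binds GDP at rest, exchanges it for GTP when a receptor is activated, and then acts on an effector until it hydrolyses the GTP. Gs alpha, and its relative Golf alpha of olfactory and striatal neurons, stimulate adenylyl cyclases, which make cyclic AMP. Gq class subunits activate phospholipase C beta, which releases calcium through inositol trisphosphate, and G12 class subunits activate exchange factors for small GTPases of the cytoskeleton.

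Of the 8 alpha subunits, 6 were detected: GNAS, GNAL, GNAQ, GNA11, GNA12 and GNA13. GNA14 and GNA15, the Gq class members known for a more restricted tissue distribution, were not. Detection followed the study's rule. A gene's level was its log2 probe intensity, the baseline of an array was the mean plus 2 SD of seminal protein genes thought to be silent in the line, and a gene counted as detected if the mean of its 4 distances (level minus baseline) was positive. The same rule detected 52.7% of all named genes. All 6 detected subunits lay above the baseline on every array, as did 45.0% of named genes, and all 6 were called by limma's one-sided test of the distance against 0 (adjusted p of 0.000662 or less), as were 45.9% of named genes. Both Gs members, both G12 members and 2 of 4 Gq members were thus detected. The arrays measured RNA from whole cultures, so that a transcript present in few cells and a transcript at low amount in each cell cannot be told apart.

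The baseline itself stood at 9.47, 9.94, 10.69 and 10.32 log2 units on replicates 1 to 4, and this spread enters every distance. A level is therefore given beside a distance where arrays are compared. Probes differ in affinity, so a larger distance of a gene is no measure of a larger amount of its transcript. Across arrays, Pearson's r over all probes, which are not independent replicates, ran from 0.908 to 0.956. Kidney epithelial markers were not detected in this line (0 of 7, UMOD, AQP2, SLC12A1, SLC12A3, NPHS1, PAX2 and PAX8, with distances from -3.23 to -1.63). These calls depended on the baseline. With olfactory receptor genes in place of the seminal genes the mean baseline was 8.02 log2 units. PAX2 and NPHS1, at mean levels of 8.48 and 8.28, lay above it, and the other kidney markers lay below it.

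**Figure D1:**
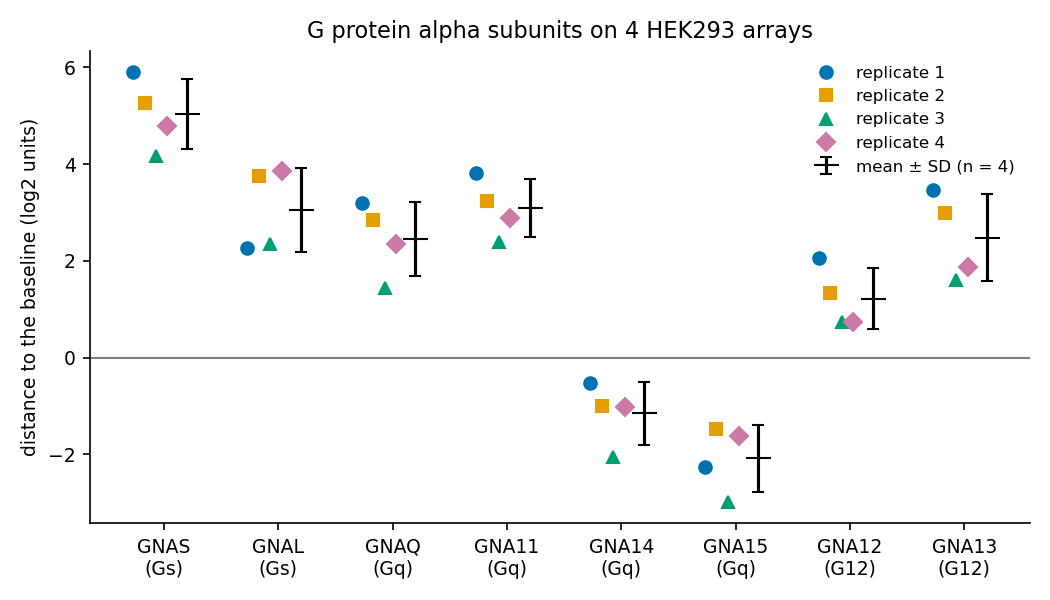
Distance of each alpha subunit gene to the array's baseline (y axis, log2 units) on the 4 HEK293 arrays, with the mean and SD beside the points; the horizontal line is the baseline. The 6 detected genes lie above it on every array, and GNA14 and GNA15 lie below it on every array.

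Gs alpha, the product of GNAS, couples hormone and neurotransmitter receptors to cyclic AMP. Its gene level was 15.37, 15.20, 14.86 and 15.12 log2 units on replicates 1 to 4. The arrays lay close together, with a level SD of 0.21, and 86.1% of all named genes had an SD at least as large. The mean distance was 5.03 ± 0.73 log2 units (SD, n = 4). Olfactory receptor genes served as a second background, with 1 of 364 detected, and none of them reached the level of GNAS on any array.

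GNAS makes several transcripts, some of them from alternative first exons, and the array held a target for each of 3 transcripts. NM_000516 and NM_080426 stand for the long and the short form of Gs alpha, which differ by a skipped internal exon, and NM_080425 stands for the extra-large form XLas, whose first exon is its own and whose later exons are those of Gs alpha. The long and short targets had distances of 5.55 ± 0.76 and 5.46 ± 0.86 log2 units (SD, n = 4), and all 3 probes of each lay above the baseline. Whether these probes tell the long form from the short form was not tested. Of the 10 targets of the 8 genes, 8 were detected, against 52.9% of named targets.

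The XLas target divided by probe. The probe numbered 2674 had levels of 15.84, 15.80, 15.72 and 15.68 on replicates 1 to 4. The probe numbered 1602 had levels of 6.58, 6.13, 7.68 and 6.62, and the probe numbered 1626 had 6.18, 5.24, 7.10 and 7.51. These 2 probes were below the baseline on all 4 arrays, at mean distances of -3.35 and -3.60, while the other 7 GNAS probes ran from 14.12 to 15.99. The span of 9.26 log2 units between the highest and lowest probe mean of the XLas target was larger than that of every other named target of 19125, for which the median span was 1.48. The mean of the linear probe values placed the target at 4.08 ± 0.59 above the baseline (SD, n = 4), the mean of log2 probe values placed it at -0.10 and the median probe at -3.00. Detection of XLas thus rested on a single probe. With the median probe the mean distance of GNAS as a gene was 2.73, against 5.03 as reported, and it was still called by limma. The digits in a probe name have the form of a position along the transcript, but the value table does not define them and the probe sequences were not used here, so which probes lie in the exons shared with Gs alpha was not tested.

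The 7 high GNAS probes lay near the top of the scale. The table's highest value was 15.99, which was the GNAS probe numbered 1176 of the long target on replicate 1, the top-ranked of all probes on that array. Their ranks among 71998 probes ran from 1 to 4829. No raw intensities were used here. Saturation of these spots, and any part of it in the small SD of the GNAS level, was not examined. The lowest of their values fell on replicate 3, at 14.12 for the probe numbered 936 and 14.43 for the probe numbered 978.

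**Figure D2:**
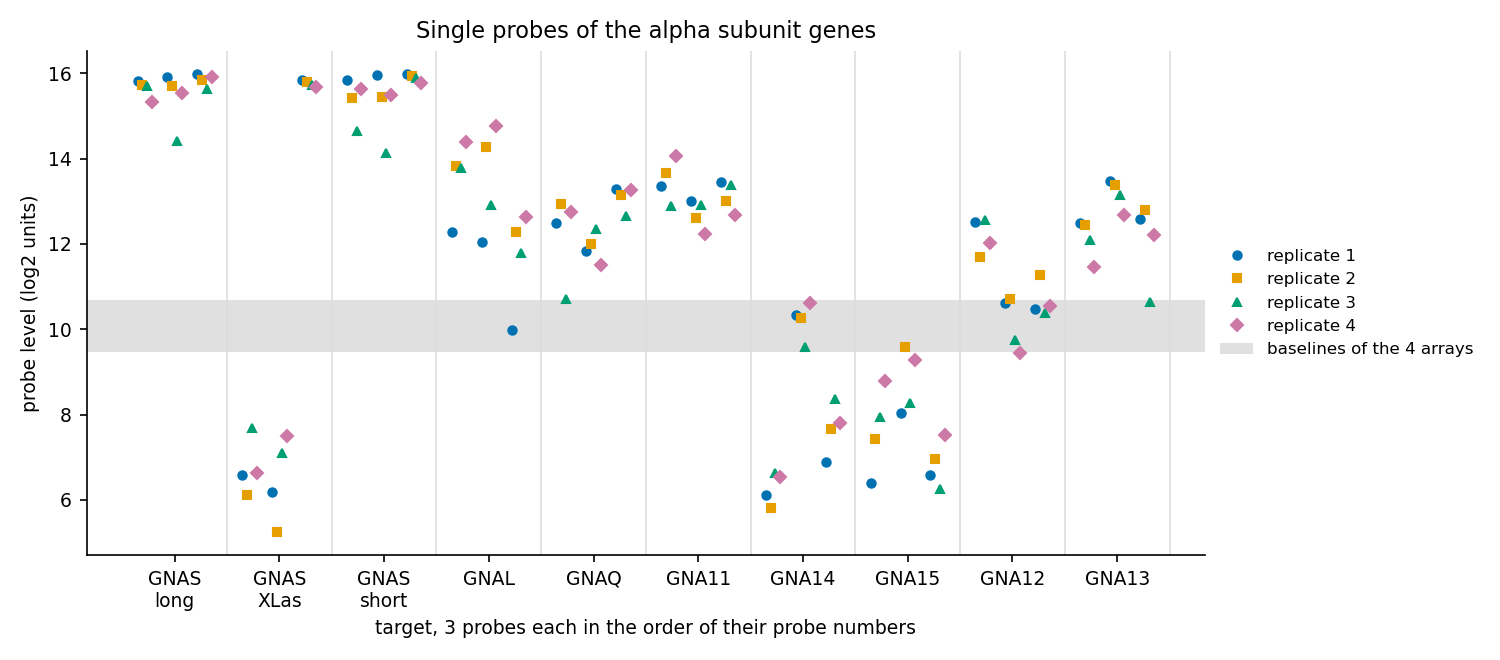
Level of each of the 30 probes (y axis, log2 units) on the 4 arrays, grouped by target with 3 probes each; the grey band spans the 4 baselines. Within the XLas target of GNAS a single probe is near 15.7 and the other 2 lie between 5.24 and 7.68, and all 3 GNAL probes are lowest on replicate 1 and highest on replicate 4.

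GNAL encodes Golf alpha, which carries odorant receptor signals in olfactory neurons and dopamine and adenosine receptor signals in the striatum. Its level was 11.73, 13.68, 13.04 and 14.18 log2 units on replicates 1 to 4, lowest on the first array and highest on the last. GNAL thus varied more between arrays than the other 7 subunits, with a level SD of 1.06 and a range of 2.45, and 2.83% of all named genes had a range as wide. The median level SD of a gene was 0.42.

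All 3 GNAL probes moved together. Each had its lowest level on replicate 1 (12.28, 12.04 and 9.99) and its highest on replicate 4 (14.39, 14.77 and 12.64). The mean distance was 3.06 ± 0.87 log2 units (SD, n = 4), from single distances of 2.26, 3.74, 2.35 and 3.86. Even the lowest of these was above the baseline by more than the SD between arrays. On replicates 1 and 3 alone the mean was 2.31 and on replicates 2 and 4 alone 3.80.

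A pair of matched coding genes overlap GNAL in the RefSeq gene table. CHMP1B, which encodes a subunit of the membrane-remodelling complex ESCRT-III, had levels of 14.21, 13.78, 14.16 and 13.46 on replicates 1 to 4 and was lowest where GNAL was highest. MPPE1, a metallophosphoesterase, had 11.52, 12.15, 12.08 and 12.09 and, like GNAL, was lowest on replicate 1. Both strands of the cDNA were labelled, so that a gene and any antisense transcript cannot be told apart on these arrays. Whether CHMP1B or MPPE1 is antisense to GNAL, or overlaps its probes, was not examined. Markers of the neurons in which GNAL is known were at or below the seminal baseline. Of the olfactory neuron genes OMP, CNGA2, CNGA4 and GNG13, only GNG13 was detected, at 0.37 ± 0.51 log2 units (SD, n = 4), and it was not called by limma (adjusted p = 0.295). Of the striatal genes DRD1, DRD2 and PPP1R1B, none was detected, with distances from -3.32 to -1.28. With olfactory receptor genes as controls the mean baseline was 8.02 log2 units. DRD2 and CNGA4, at mean levels of 8.82 and 8.05, lay above it, and the other undetected neuronal markers lay below it.

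The Gq class divided in 2. GNAQ and GNA11 encode closely related, widely expressed subunits that couple many receptors to phospholipase C beta. GNA11 had levels of 13.29, 13.16, 13.09 and 13.21 log2 units on replicates 1 to 4, the tightest of the 8 genes, and 98.7% of all named genes had a level SD at least as large as its 0.085. Its distance was 3.08 ± 0.60 (SD, n = 4). Its probes did not share this steadiness, since the probe numbered 533 was highest on replicate 4, at 14.06, where the probes numbered 851 and 1421 were lowest, at 12.24 and 12.68. The steady gene level was an average over probes that moved in opposite directions.

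GNAQ had levels of 12.66, 12.77, 12.12 and 12.68 log2 units on replicates 1 to 4, and a distance of 2.45 ± 0.76 (SD, n = 4). It was lowest on replicate 3, where its probe numbered 717 stood at 10.71, against 12.49 to 12.94 on the other arrays. The probe numbered 1575 was also lowest there, at 12.66. That numbered 1218 was highest there, at 12.35, against 11.51 to 11.99 on the other arrays, so the probes did not move together. The human genome holds a pseudogene copy of GNAQ, GNAQP1, and GNAQ and GNA11 are similar in sequence. How far these probes hybridise to more than a single one of these transcripts was not tested.

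GNA14 lay below the baseline on every array, at levels of 8.95, 8.95, 8.64 and 9.30 log2 units on replicates 1 to 4 and at a distance of -1.15 ± 0.65 (SD, n = 4). Its probes disagreed. The probe numbered 977 stood at 9.58 to 10.62, close to the baseline and above it on 3 of 4 arrays, while the probes numbered 571 and 1350 ran from 5.82 to 8.37. Set against the 364 olfactory receptor genes, GNA14 had 2, 5, 6 and 4 of them at or above its level on replicates 1 to 4.

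GNA15, a subunit of blood cells known to couple to receptors of many kinds, had levels of 7.21, 8.47, 7.71 and 8.71 log2 units and a distance of -2.08 ± 0.69 (SD, n = 4). All 3 of its probes were below the baseline on every array. Its level was reached by 41, 7, 57 and 5 of the olfactory receptor genes on replicates 1 to 4. Among blood cell genes, PTPRC, CD3E, CD14, ITGAM and SPI1 were not detected either, at -3.56 to -2.22, and LCP1, an actin-bundling protein also known from transformed cells, was at 1.70 ± 0.71 (SD, n = 4).

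The detected and the undetected members of the Gq class are neighbours on the chromosome. In the order of coding genes in RefSeq, GNA11 lies next to GNA15, and GNAQ lies next to GNA14. In each pair the first was above the baseline on all 4 arrays and the second below it on all 4. RefSeq promoter windows on assembly GRCh38.p14 were given for 6 of the 8 genes, GNA11, GNA12, GNA13, GNA14, GNAL and GNAS. GNA11 and GNA14 are shown here as a detected and an undetected Gq gene with a single window each. The 250 bases before the annotated start are printed 5′ to 3′ on the gene's strand, with each CpG dinucleotide in capitals. The GNA11 window was chr19:3094112-3094361 on the plus strand and the GNA14 window was chr9:77648323-77648572 on the minus strand.
GNA11: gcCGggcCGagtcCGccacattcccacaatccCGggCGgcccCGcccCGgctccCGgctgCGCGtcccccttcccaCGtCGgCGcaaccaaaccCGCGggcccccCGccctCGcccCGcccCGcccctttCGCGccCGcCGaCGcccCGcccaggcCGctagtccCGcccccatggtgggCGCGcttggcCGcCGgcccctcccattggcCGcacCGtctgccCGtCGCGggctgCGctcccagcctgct
GNA14: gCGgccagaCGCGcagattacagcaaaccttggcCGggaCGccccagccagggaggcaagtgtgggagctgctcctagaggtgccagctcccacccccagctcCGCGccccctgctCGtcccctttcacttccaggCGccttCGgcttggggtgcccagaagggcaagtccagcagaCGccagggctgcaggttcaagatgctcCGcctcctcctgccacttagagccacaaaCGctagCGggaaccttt

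The GNA11 window held 37 CpG dinucleotides and the GNA14 window 14, and 4% and 44.8% of all 35116 windows held as many. The motif GGGCGG, searched on both strands with overlaps counted, occurred 7 times before GNA11 and 0 times before GNA14, and 42.6% of all windows held it at least once. The other detected genes with windows, which leaves out GNAQ, had several starts each. There were 30 and 9 CpG dinucleotides before those of GNA12 and 39 and 17 before those of GNA13. The counts ran from 7 to 31 over the 5 windows of GNAL and from 9 to 33 over the 6 windows of GNAS. In the same order, the motif occurred 3 and 0 times before the starts of GNA12 and 6 and 0 times before those of GNA13. It occurred 0 to 2 times in the GNAL windows and 0 or 1 times in the GNAS windows, so that 0 was also found before starts of detected genes. Which start each HEK293 transcript used was not measured. The counts describe the sequence and no comparison between the detected and undetected genes was tested.

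G12 class subunits couple receptors to small GTPases such as RHOA and through them to the actin cytoskeleton. GNA13 had levels of 12.93, 12.93, 12.28 and 12.20 log2 units on replicates 1 to 4 and a distance of 2.48 ± 0.89 (SD, n = 4). Its 3 probes had mean distances from 1.96 to 3.07, and the probe numbered 4556 was below the baseline on replicate 3, at 10.64.

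GNA12 was the detected member nearest the baseline. Its levels were 11.53, 11.28, 11.43 and 11.05 log2 units, and its distances were 2.06, 1.34, 0.74 and 0.73, with a mean of 1.22 ± 0.63 (SD, n = 4, limma adjusted p = 0.000662). The level hardly moved, with an SD of 0.21, and the fall in distance on replicates 3 and 4 went with their higher baselines. Of its probes, the one numbered 3092 stood at 2.10 ± 0.64 above the baseline, and those numbered 4236 and 3934 at 0.56 ± 0.74 and 0.03 ± 1.09 (SD, n = 4 each). The level of the probe numbered 3934 did move, from 10.62 and 10.72 on replicates 1 and 2 to 9.75 and 9.45, below the baseline, on replicates 3 and 4. GNA12 as a gene had 0, 1, 0 and 0 of the 364 olfactory receptor genes at or above its level on replicates 1 to 4. On replicates 3 and 4 alone its distance was 0.73 (limma adjusted p = 0.0566), and with the median of its probes it was 0.74 (limma adjusted p = 0.0541). AMZ1, which overlaps GNA12 in RefSeq, had levels of 7.15, 10.51, 9.12 and 9.57 and was not detected, at -1.01 ± 1.24 (SD, n = 4).

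Ordered by distance, the detected subunits ran GNAS, GNA11, GNAL, GNA13, GNAQ and GNA12. Neighbours in this order were compared by their difference on each array, in which the baseline cancels. GNAS exceeded GNA11 by 1.95 ± 0.14 log2 units (SD, n = 4) and GNAQ exceeded GNA12 by 1.24 ± 0.42. GNA14 and GNA15 were below the baseline on all 4 arrays, so their values are not set against those of the other genes or each other. The differences between GNA11 and GNAL (0.03 ± 1.10), GNAL and GNA13 (0.57 ± 1.32), and GNA13 and GNAQ (0.03 ± 0.34) were within their spread between arrays. The order describes intensities and not amounts of transcript, because of the differing probe affinities. By each probe's mean distance over the 4 arrays, 7 of the 10 targets had every probe above the baseline and 1, that of GNA15, had none. The remaining 2, GNA14 and XLas, had probes on both sides, as did 24.4% of named targets. A further rule asked that every probe of every target of a gene lie above the baseline in this mean, not on every array. Under it 5 of the 8 genes passed, without GNAS, as did 34.1% of all named genes.

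**Figure D3:**
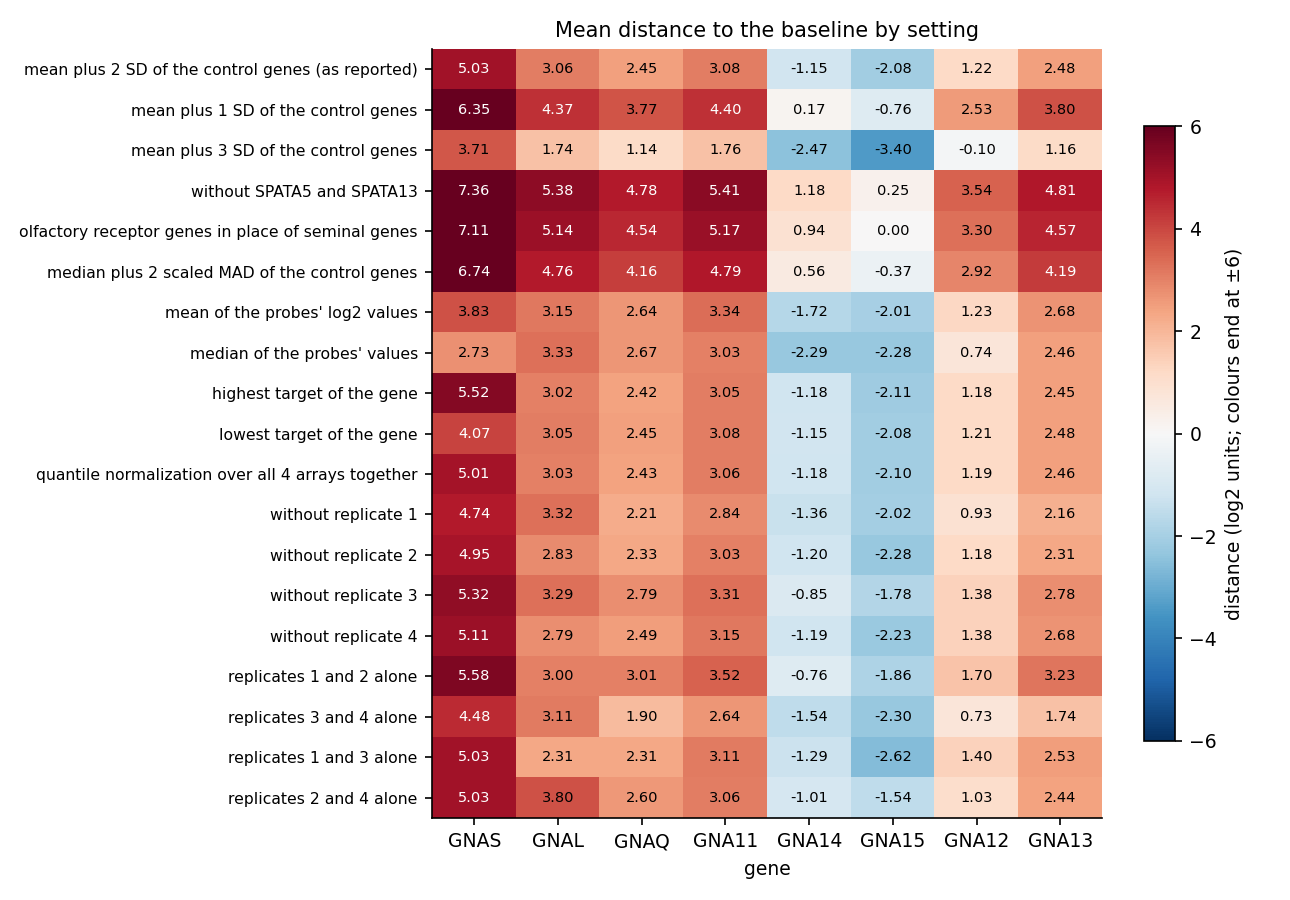
Mean distance to the baseline of each alpha subunit gene (columns, log2 units, printed in each cell) under each choice of control genes, probe and target summary, normalization and arrays (rows). GNAS, GNAL, GNAQ, GNA11 and GNA13 are above 0 in every row shown, GNA12 falls to -0.10 with 3 SD, and GNA14 and GNA15 rise above 0 only with lower baselines.

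The height of the baseline decided the calls at the edge. With olfactory receptor genes as controls all 8 subunits were detected, with GNA14 at 0.94 (limma adjusted p = 0.0012) and GNA15 at 0.0041 (limma adjusted p = 0.69). Without SPATA5 and SPATA13, which lie above the other control genes on every array, GNA14 stood at 1.18 (limma adjusted p = 7.6e-05) and GNA15 at 0.25 (limma adjusted p = 0.267). With 3 SD in place of 2, 5 were detected and GNA12 was not. Of 17217 named genes, 12289 were detected with olfactory receptor controls, 12747 without SPATA5 and SPATA13 and 6731 with 3 SD, against 9074 as reported. GNA14 was thus below the seminal baseline and above that of the olfactory receptor genes. Calls of cell type markers moved too. PPP1R1B, SLC12A3 and CD14, at mean levels of 7.91, 7.90 and 7.88, lay above the mean baseline of 7.78 without SPATA5 and SPATA13.

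The genes that these subunits act with were then listed by class, and the Gi/o alpha subunits were added as a further list. The 10 lists held 59 genes, of which 58 were matched. Of these, 38 were detected, 34 on every array, and limma called 36, where the same rules took 52.7%, 45.0% and 45.9% of all named genes. Shares near these, such as 5 of 9 adenylyl cyclases or 2 of 4 phospholipase C beta genes, do not set a list apart. The median distance was 1.44 log2 units, against 0.26 for all named genes and 2.47 for the 8 alpha subunits.

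Among the effectors of Gs, 5 of 9 adenylyl cyclases were detected, all on every array. They were ADCY6 at 2.29 ± 0.73, ADCY9 at 2.04 ± 0.64, ADCY7 at 1.66 ± 0.31, ADCY1 at 1.14 ± 0.73 and ADCY3 at 0.94 ± 0.70 log2 units (SD, n = 4 each). ADCY3 is the cyclase that Golf stimulates in olfactory neurons. ADCY5, its partner in the striatum, lay at -2.74 ± 0.50, and ADCY4, nearest below the baseline, at -1.78 ± 1.18. Of the proteins that answer to cyclic AMP, 8 of 9 were detected, among them the kinase subunits PRKAR1A at 4.20 ± 1.01, PRKACB at 1.91 ± 0.58 and PRKACA at 3.29 ± 0.50, the transcription factor CREB1 at 1.66 ± 0.71 and, nearest the baseline, the kinase subunit PRKAR2B at 0.73 ± 0.83. Of the cyclic AMP-activated exchange factors, RAPGEF4 was detected, at 1.18 ± 0.65, and RAPGEF3 was not, at -2.90 ± 1.05 (SD, n = 4 each).

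Among the effectors of Gq, 2 of 4 phospholipase C beta genes were detected. PLCB3 stood at 2.14 ± 0.32 log2 units, more than the spread between arrays, and PLCB1 at 0.65 ± 1.00, within it, with a limma adjusted p of 0.0697 (SD, n = 4 each). PLCB4 was at -0.95 ± 0.93 and PLCB2, known from blood cells, at -2.78 ± 0.79. The exchange factors that Gq activates directly were detected in 2 of 3 cases, TRIO at 2.47 ± 0.51 and ARHGEF25 at 2.32 ± 0.43, without KALRN at -2.83 ± 0.77. All 3 inositol trisphosphate receptors, the calcium release channels downstream, were detected, with ITPR3 at 2.75 ± 0.41, ITPR2 at 1.51 ± 0.73 and ITPR1 at 1.42 ± 1.24, the last below the baseline on replicate 3. Of 9 proteins that bind active Gq and end or block its signal, only the kinase GRK3 was detected, at 1.59 ± 0.60. This count was 2 without replicate 3, 3 with 1 SD and 5 with olfactory receptor controls or without SPATA5 and SPATA13. In the same order, 9343, 11075, 12289 and 12747 of 17217 named genes were detected. RGS2, selective for Gq, lay nearest below the baseline, at -0.27 ± 0.64 (SD, n = 4).

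Among the effectors of G12, all 4 exchange factors were detected on every array. They were ARHGEF1 at 3.80 ± 0.70, AKAP13 at 3.03 ± 0.40, ARHGEF11 at 2.12 ± 0.35 and ARHGEF12 at 1.53 ± 0.73 log2 units. RHOA, RHOB, RHOC, ROCK1 and ROCK2, the GTPases and kinases downstream, were detected on every array too, with RHOA at 4.77 ± 1.11 and ROCK2 at 2.88 ± 0.99 as the highest and lowest (SD, n = 4 each).

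All alpha subunits need help to fold and to reach the membrane. RIC8B, the chaperone of Gs class subunits, stood at 2.81 ± 0.28 log2 units and RIC8A, that of the Gq, G12 and Gi classes, at 3.49 ± 0.69. The palmitoyl transferases ZDHHC3 and ZDHHC7 stood at 3.22 ± 0.69 and 2.42 ± 0.41, and LYPLA1, which removes the lipid, at 0.51 ± 1.12, within the spread between arrays (SD, n = 4 each, limma adjusted p = 0.15). In the Gi/o class, which inhibits adenylyl cyclases, 3 of 7 alpha subunits were detected, GNAI2 at 3.77 ± 0.54, GNAZ at 2.05 ± 0.64 and GNAI3 at 1.46 ± 0.56. GNAI1 stood at -0.02 ± 0.92, on the baseline (SD, n = 4 each). The retinal subunits GNAT1 and GNAT2 and the neuronal GNAO1 were not detected, at -2.40 to -1.83. With olfactory receptor controls, and without SPATA5 and SPATA13, 6 of the 7 were detected, as were 12289 and 12747 of 17217 named genes.

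**Figure D4:**
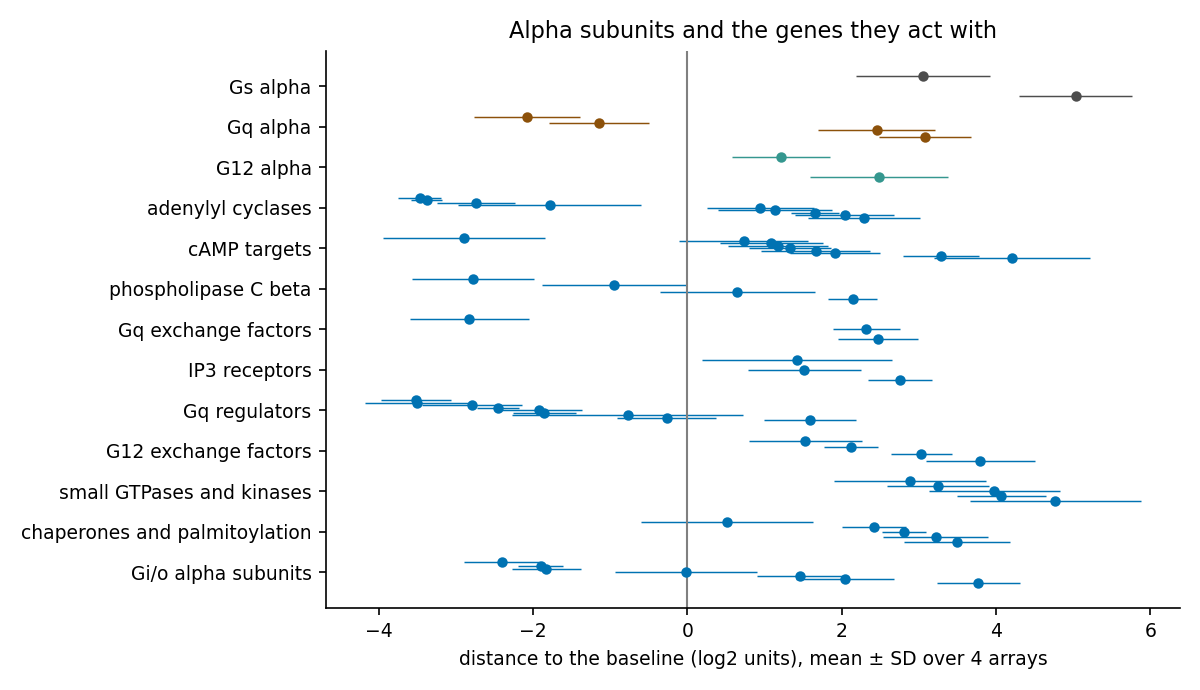
Distance to the baseline (x axis, log2 units; points are genes, bars the SD over 4 arrays) of the alpha subunits of each class and of the lists of effectors, regulators and chaperones. All means of the G12 exchange factors and of the small GTPases and kinases lie above the baseline, and 8 of 9 Gq regulators lie below it.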

How the data were processed

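The authors hybridised Cy3-labelled cDNA from 4 HEK293 cultures to a NimbleGen array of 3 long probes per target, read the images with NimbleScan and deposited log2 intensities, 1 per probe and array. RMA is named in the submitters' processing notes, with no role or version. Sorted values coincided within 0.01 at 99.97% of ranks between replicates 1 and 2 and at 99.99% between replicates 3 and 4, the form of quantile normalization in 2 pairs.

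Here accessions were matched to RefSeq (assembly GRCh38.p14, used for names and neighbours), probes were averaged on the linear scale, and targets were averaged on the log2 scale per gene. Of 11 seminal control genes 10 were matched, and their mean plus 2 SD was the baseline, 10.10 ± 0.52 log2 units (SD, n = 4). limma 3.58 in R 4.3 tested distances to it one-sided against 0, with Benjamini-Hochberg adjustment over 17217 genes at 0.05, after a test on simulated data. The simulated noise was independent between genes, at the median level SD of 0.42, where distances had a median SD of 0.63. It left out the spread of the baseline that all genes share, so it does not cover that part of the error. The prior degrees of freedom of limma were infinite, so every gene had a standard error of 0.351. Through this shared value the p-values measure the spread of distances over 4 arrays, that of the baselines included, and not a gene's own spread. They leave out the uncertainty of the baseline that comes from the choice of control genes, which all genes share. An exact sign-flip test of a single gene cannot go below 0.0625. The number of arrays limits the precision.

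The named genes were the members, the controls and the members of the lists of effectors, regulators, chaperones and markers, in each list all detected genes where there were 6 or fewer and otherwise those of largest distance and those next to the baseline. Other genes, such as ADCY5, RAPGEF4, PLCB2, GRK2, RGS4, RGS8, the undetected Gi/o subunits and genes that overlap a member, were named after their values were seen. The members and lists were chosen with earlier results of these data known. Other baselines, control genes, probe and target summaries, normalization, arrays and limma settings were tried. GNAT3 and PYY2 had no matched accession. Some listed marker genes are not reported here.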

Additional observations from a re-analysis of the deposited data

Results flagged for a closer look

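Of 108 values looked at (distances, levels and the baseline), 4 had an array whose gap to its nearest neighbour, as a ratio to the whole range, passed the critical value of Dixon's test, and chance marks about 5% of groups. None of them was an alpha subunit of the Gs, Gq or G12 class. GNAI2 had a distance of 4.56 on replicate 1, against 3.40 to 3.60 elsewhere (ratio 0.830), that of KALRN -1.69 on replicate 1 and -3.40 to -3.11 on the others (0.831), that of RGS4 -2.05 on replicate 1 and -2.63 to -2.53 on the others (0.832), and that of RGS8 -3.77 on replicate 2 and -2.54 to -2.40 on the others (0.903). In levels, GNAI2 had 14.03, 13.53, 14.09 and 13.84 and RGS4 7.42, 7.33, 8.06 and 7.79 on replicates 1 to 4. For both, replicate 1 lay within the range of the other arrays. KALRN had 7.78, 6.54, 7.58 and 7.20, highest on replicate 1, and RGS8 had 7.06, 6.17, 8.24 and 7.79, lowest on replicate 2. Replicate 1 had the lowest baseline, at 9.47 log2 units, and its part in these distances was not tested.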

How the results depend on the processing

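The count of detected subunits ran from 5 to 8 over 20 alternatives and stayed at 6 without any single array. Over the same alternatives the count of detected genes among all 17217 named genes ran from 5876 to 12747. That of subunits was 7 with 1 SD (11075 named genes) and with the median and scaled median absolute deviation (11657 named genes). GNA14 changed sign, to 0.17 with 1 SD, 0.56 with the median, 0.94 with olfactory receptor controls and 1.18 without SPATA5 and SPATA13. GNA15 changed sign to 0.0041 and 0.25 under the last pair. GNA12 changed sign to -0.10 with 3 SD. The XLas target changed sign to -0.10 with the mean of log2 probe values and -3.00 with the median probe, and GNAS as a gene stood at 2.73 with the median probe. In all these the baseline or the probe summary is what the alternative changed. Over all named genes limma called 4922 with 3 SD and 7904 as reported. When every probe mean had to lie above the baseline 5876 genes passed, against 9074 as reported. GNAS, GNAL, GNAQ, GNA11 and GNA13 were called by limma under all 21 alternatives run for them. Among the gene lists, the count of detected Gq regulators moved from 1 to between 2 and 5 under 7 of 20 alternatives. That of Gi/o subunits moved from 3 to 6 under the lowest baselines. With 3 SD the detected adenylyl cyclases were 3, the cyclic AMP targets 5 and the phospholipase C beta genes 1. The last was also 1 on replicates 3 and 4 alone and when every array had to lie above the baseline. Of the 4 G12 exchange factors, 2 had every probe mean above it. The alternatives that took replicates 1 and 3 or 2 and 4 alone, or required every probe, were chosen after seeing the data. No paired analysis was possible because the design holds a single group.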

Other observations

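The probes of the long and short Gs alpha targets had numbers that differed by 42 in each of 3 pairs. Levels within a pair, long minus short, differed by 0.26 ± 0.58, 0.13 ± 0.16 and -0.06 ± 0.18 log2 units (SD, n = 4), all within their spread between arrays. Whether the paired probes lie in sequence that both forms share was not tested. The 2 targets are therefore not read as separate measures of the long and short forms. GRK2, a kinase that binds active Gq and is known from most tissues, stood at -3.50 ± 0.68 log2 units (SD, n = 4), lower than 8 of the 10 seminal control genes.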
